A study of Mus musculus with 12 samples.

Results

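The baseline transcriptome described here is that of pancreatic islets from mice labelled as Rnf20 flox controls. Its members are 6 of the 12 libraries of the study, 3 from females and 3 from males, chosen by genotype label. The other 6 libraries, from mice carrying Rnf20 F/F with Pdx1 Cre ER, were not used here. Mice of both genotypes were gavaged 5 times with tamoxifen, at a dose of 150 ug/g of body mass, when they were 4 weeks old. Islets were freed with collagenase and picked by hand, and total RNA was sequenced. The labels give neither a Cre for the controls, nor the strain, the age at islet collection or the number of animals behind a library, so spreads between libraries are not shown to be spreads between animals.

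Islets of Langerhans are small endocrine organs scattered through a pancreas that is mostly exocrine acinar tissue. Beta cells make insulin and amylin, alpha cells glucagon, delta cells somatostatin, PP cells pancreatic polypeptide and the rare epsilon cells ghrelin. Each hormone is made as a precursor, cut by convertases in dense granules beside acidic granin proteins, and released when nutrients raise calcium. Whole islets also carry vessels, stroma, nerve, immune cells and some adhering acinar and duct tissue, so a bulk value cannot tell fewer cells of a type from less RNA per cell.

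The quantity used throughout is a gene's share of its own library's assigned reads, given as a percentage or as CPM, the reads of a gene in each 1000000 assigned reads, and its rank in that library, where 1 has the most reads. Libraries held 19759712 to 56086810 assigned reads, and the tables listed 26001 genes in all, 23104 of them in both sexes. One read was worth 0.0178 to 0.0506 CPM. Male control 2 stood apart, with 17701 genes with reads, where the other libraries would give 21496 to 23096 at its depth. Its rank correlation with the other libraries was 0.952 to 0.967 across 14457 genes, compared with 0.959 to 0.985 among the others. These correlations are across genes, which are not independent replicates. Male controls 2 and 3 also differed from the other 4 libraries in reads of Esr1, whose values are given with the genes high in single libraries.

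Hormones were the largest single product of control islets among the lists described here. The 8 islet hormone genes took 20.3%, 17.3% and 16.7% in females (mean 18.1% ± 1.95, SD, n = 3) and 19.1%, 18.9% and 23.1% in males (20.4% ± 2.37, SD, n = 3). Of the 8 genes 7 exceeded 100 CPM on average, and the exception was the ghrelin gene Ghrl.

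Ins2, the mouse counterpart of the single human insulin gene (ENSMUSG00000000215, GRCm39 chromosome 7, 142232393 to 142297118), held rank 1 in all 6 libraries. It took 11.4%, 9.75% and 8.03% of reads in females and 10.4%, 11.3% and 13.6% in males. The depth makes the counting error of such a share small: the 95% Wilson interval of the lowest value was 8.02% to 8.04%, which covers counting only. Ins1 (ENSMUSG00000035804, chromosome 19, 52252735 to 52253914), the compact second insulin gene of mice and rats, took 4.46%, 3.58% and 3.01% in females and 3.93%, 4.06% and 5.61% in males. Ins1 ranked second in every library but female control 3, where glucagon passed it. The pair together held 13.4% ± 2.41 of reads in females and 16.3% ± 2.53 in males (SD, n = 3), and the ranges of the sexes overlapped.

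Iapp, which encodes amylin, the peptide released with insulin (ENSMUSG00000041681, chromosome 6, 142244149 to 142249687), was steadier, at 2.18%, 1.93% and 1.70% in females and 1.69%, 1.58% and 1.75% in males. Gcg, the alpha cell gene for glucagon (ENSMUSG00000000394, chromosome 2, 62304874 to 62313994), was at 1.27%, 1.54% and 3.38% in females and 2.21%, 1.40% and 1.19% in males. Female control 3 was high in Gcg and low in both insulins, and male control 3 was the reverse. The reads of both insulins thus outnumbered those of Gcg 3.27-fold in female control 3 and 16.1-fold in male control 3, with 6.50-fold to 12.5-fold in the other 4 libraries.

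Among the minor endocrine hormones, Ppy, pancreatic polypeptide (ENSMUSG00000017316, chromosome 11, 101990756 to 101992145), was at 6542, 2536 and 2555 CPM in females and 5634, 2960 and 6091 in males. Its neighbour Pyy, peptide YY (chromosome 11, 101997502 to 101998658), was at 1668, 743 and 903 in females and 1428, 840 and 1801 in males. Both genes were high in female control 1, male control 1 and male control 3 and low in the other 3 libraries. Sst, somatostatin (ENSMUSG00000004366, chromosome 16, 23708323 to 23709708), kept within 1392 to 2101 CPM in all 6. Ghrl was at 7.27, 4.25 and 2.48 in females and 0.989, 2.33 and 0.963 in males, at ranks 10029 to 14355, and every female value lay above every male value.

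The promoters of the hormone genes Ins1, Iapp, Gcg, Sst and Ppy and of the leading granule gene Chga are shown because these genes are among those with the largest shares of islet RNA. Each run is the 250 bases before the annotated start in RefSeq's GRCm38.p6, read 5′ to 3′ on the gene's strand, and capitals mark 3 motifs found by letter search on either strand: TATAAA, the E box letters CAGATG bound by factors such as NeuroD1, and TGACGTCA, the cAMP response element. The homeobox letters TAATTA were also searched, and none of the motifs overlap in these runs. Of the 8 hormone genes 7 had a promoter in the table, with Ins2 the one without, and those of Pyy and Ghrl are not shown.
Ins1 promoter, chr19:52264047-52264296, strand +: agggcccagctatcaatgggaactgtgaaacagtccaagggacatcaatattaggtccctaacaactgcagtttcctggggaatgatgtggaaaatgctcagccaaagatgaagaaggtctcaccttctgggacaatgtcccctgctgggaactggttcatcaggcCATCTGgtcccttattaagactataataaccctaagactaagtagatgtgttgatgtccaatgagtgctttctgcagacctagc
Iapp promoter, chr6:142298175-142298424, strand +: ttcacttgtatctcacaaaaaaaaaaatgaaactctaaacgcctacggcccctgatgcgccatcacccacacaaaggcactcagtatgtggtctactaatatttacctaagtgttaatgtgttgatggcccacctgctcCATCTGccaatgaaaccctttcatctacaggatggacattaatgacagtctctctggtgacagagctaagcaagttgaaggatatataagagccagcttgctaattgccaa
Gcg promoter, chr2:62483654-62483903, strand -: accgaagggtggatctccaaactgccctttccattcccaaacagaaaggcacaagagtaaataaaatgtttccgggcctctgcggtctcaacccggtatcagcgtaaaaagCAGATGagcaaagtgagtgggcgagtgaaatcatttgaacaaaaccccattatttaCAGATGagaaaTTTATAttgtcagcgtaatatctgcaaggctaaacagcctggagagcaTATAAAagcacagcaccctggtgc
Sst promoter, chr16:23890845-23891094, strand -: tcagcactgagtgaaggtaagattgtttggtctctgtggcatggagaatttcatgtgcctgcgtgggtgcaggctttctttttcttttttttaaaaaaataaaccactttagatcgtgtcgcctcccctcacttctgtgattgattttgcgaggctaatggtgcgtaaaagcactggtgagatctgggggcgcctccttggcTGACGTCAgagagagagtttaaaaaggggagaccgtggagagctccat
Ppy promoter, chr11:102101320-102101569, strand -: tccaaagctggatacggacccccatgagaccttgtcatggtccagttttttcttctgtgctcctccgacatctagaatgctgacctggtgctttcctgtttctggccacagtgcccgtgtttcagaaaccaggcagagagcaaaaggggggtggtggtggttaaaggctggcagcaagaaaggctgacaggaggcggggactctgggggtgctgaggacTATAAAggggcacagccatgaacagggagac
Chga promoter, chr12:102554691-102554940, strand +: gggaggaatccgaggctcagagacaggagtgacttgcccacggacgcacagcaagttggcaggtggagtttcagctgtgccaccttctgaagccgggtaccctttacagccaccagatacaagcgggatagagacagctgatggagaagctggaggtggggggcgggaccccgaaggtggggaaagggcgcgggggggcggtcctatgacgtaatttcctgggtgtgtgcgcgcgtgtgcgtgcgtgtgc

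In these windows Gcg had the letters TATAAA on its own strand 24 bases before the start and Ppy 31 bases before it. Gcg also carried CAGATG at 139 and 83 bases before the start, and Ins1 and Iapp carried it on the other strand at 84 and 111 bases. Sst carried the complete TGACGTCA 48 bases before its start, the element through which cAMP is known to act on this gene. Chga, with 16 CpG pairs and 62.4% G and C in its window, held none of the 4, while Ins1 had 0 CpG pairs. Over 27025 mouse promoters of the same length, 13.0% held TATAAA on either strand, 14.5% CAGATG, 1.62% TGACGTCA and 4.90% TAATTA. A letter match describes sequence and is not evidence of binding.

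The sequence just upstream of the start differed between groups of genes along the ranking. TATAAA on the gene strand between 45 and 16 bases before the start was present in 2.36% of all promoters and in 2.10% of the 15272 matched to listed genes. Among the 37 matched promoters of the 50 leading genes it was present in 7, or 18.9%, namely Gcg, Pnlip, Ppy, Cela1, Try4, 2210010C04Rik and Meg3. The share was 3.42% in the next 150 genes, 2.15% in the 800 after them and 0.680% in the 4000 after those. It was higher again further down, at 1.39% in the next 5000 genes and 2.27% in the 5000 after them. Acinar markers held the letters in 9 of 29 promoters and hormones in 2 of 7, while granule cargo and granin genes held them in 0 of 9. The median ratio of observed to expected CpG pairs was 0.503 in the leading 50 and 0.778 to 0.806 in the 3 groups down to gene 5000, then 0.725 and 0.564 in the last 2. Leading genes were also short, with a median exon length of 2.19 kb for the first 50 against 5.15 kb for the group of 800, and the last 2 groups were shorter again at 4.42 and 3.17 kb. None of these measures changed in 1 direction along the whole ranking.

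**Figure D1:**
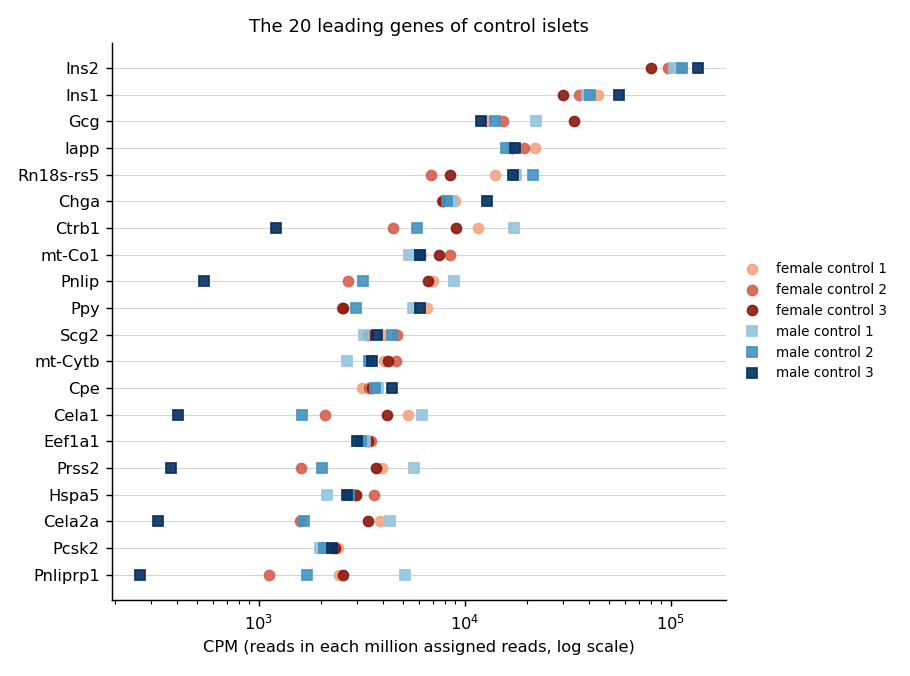
CPM (log scale) of the 20 genes with the highest mean share, one point per control library, circles for females and squares for males. Ins2 leads in all 6 libraries, Ins1, Iapp and Gcg follow, and the digestive enzyme genes such as Ctrb1, Pnlip and Prss2 spread far more widely than the endocrine genes.

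Because long transcripts collect more reads, genes were also set side by side per kilobase of exon. On that scale both insulins took 23.0% to 37.8% of the length-corrected signal, and 9 to 35 genes held 50% of it, compared with 402 to 626 genes for plain reads. Exact two-sided sign-flip permutation tests over the 6 libraries compared 12 gene pairs within each library, adjusted by Benjamini-Hochberg over the pairs. The smallest p this design allows is 0.03125, and 9 pairs reached it, each with adjusted p = 0.0417 and the same direction in 6 of 6 libraries. With any library left out the smallest possible p is 0.0625, so these calls need all 6.

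Among hormones, Ins2 exceeded Ins1 per kilobase 2.13-fold (log2 ratio 1.09 ± 0.07, SD, n = 6; exact permutation, adjusted p = 0.0417). That ratio was nearly fixed, from 0.97 to 1.17 on the log2 scale, although the level of each gene moved. The insulin genes are similar in coding sequence, but only 7 of the 1013 words of 50 bases in Ins1 transcripts also occur in Ins2. Gcg exceeded Sst 4.73-fold (log2 2.24 ± 0.59) and Ppy exceeded Sst 3.35-fold (log2 ratio of Sst to Ppy -1.74 ± 0.64), in every library. Iapp was above Gcg in 5 of 6 libraries, with female control 3 the exception, and this order did not pass (log2 0.69 ± 0.66, n = 6, exact permutation, adjusted p = 0.1125).

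Among granule and processing genes, Chga, chromogranin A, exceeded Chgb 4.50-fold per kilobase (log2 ratio of Chgb to Chga -2.17 ± 0.25, n = 6). Pcsk2, the convertase that completes proinsulin cleavage and makes glucagon in alpha cells, exceeded Pcsk1 by 1.42-fold (log2 0.51 ± 0.34). Abcc8, the sulfonylurea receptor, exceeded its channel partner Kcnj11 3.36-fold (log2 1.75 ± 0.14), although the channel protein holds both in equal number. Ldha, lactate dehydrogenase A, which makes lactate from pyruvate, exceeded Ldhb 2.83-fold (log2 ratio of Ldhb to Ldha -1.50 ± 1.04), a ratio that ran from near equality in male control 2 to its widest in female control 2. All of these passed at exact permutation adjusted p = 0.0417.

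The glucose transporters Slc2a2 and Slc2a1 could not be ordered (log2 -0.06 ± 0.46, n = 6, exact permutation, adjusted p = 0.852), with Slc2a2 the higher in 2 of 6 libraries. Nor could the H2B ubiquitin ligase partners Rnf40 and Rnf20 (log2 -0.02 ± 0.20, n = 6, exact permutation, adjusted p = 0.906). For that pair the order rests on the length used: with the longest transcript as length the log2 ratio was -0.69 and with no length -0.39, both called at exact permutation adjusted p = 0.0375. The size of other ratios also depends on the length. With the longest transcript Ins2 over Ins1 was at log2 1.61 and Pcsk2 over Pcsk1 at 1.10. With no length Slc2a2 over Slc2a1 was at 0.65 and still not called (exact permutation, adjusted p = 0.0682).

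**Figure D2:**
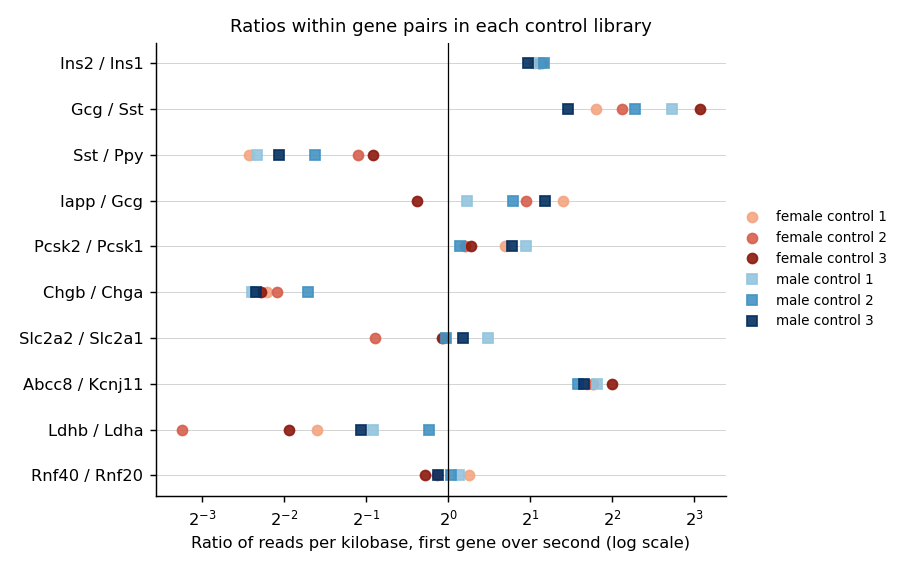
Ratio of reads per kilobase of exon, first gene over second (log scale, vertical line at equality), for 10 of the gene pairs, one point per control library. The Ins2 to Ins1 and Abcc8 to Kcnj11 ratios vary little between libraries, while the Gcg to Sst, Sst to Ppy and Ldhb to Ldha ratios are wide, and 3 pairs reach or cross equality.

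Granule protein genes ranked close behind the hormones. The 10 granule cargo and granin genes took 1.69% to 2.34% of reads, and 9 of them had means over 100 CPM. Chga held 8918, 7726 and 7862 CPM in females and 8641, 8227 and 12800 in males, at ranks 5 to 8. Scg2, secretogranin II, followed at 3249 to 4674, Scg3 at 1646 to 2930 and Chgb at 1607 to 2507. Nnat, neuronatin, was the lowest of the list at 7.95 to 18.4. The 8 prohormone processing genes together took a near constant 0.848% to 1.00% of reads. Cpe, which trims the basic residues left by the convertases, was at 3158 to 4457, Pcsk2 at 1979 to 2435, Pam, the amidating enzyme, at 1148 to 1860 and Pcsk1 at 727 to 1379.

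Genes of the secretory pathway ranked high as well. The 19 genes of folding and stress in the endoplasmic reticulum took 0.997% to 1.49% of reads, and 18 had means over 100 CPM. Hspa5, the chaperone BiP, reached 2135 to 3639, with every female value at or above 2954 and every male value at or below 2728. Hsp90b1 followed at 984 to 1477 and Calr at 873 to 1222, with the sexes overlapping. Xbp1, the factor that builds secretory capacity, was at 428 to 528.

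The 26 genes of glucose sensing and its coupling to secretion took an even 0.743% to 0.808% of reads, a range of 1.09-fold, the narrowest among the lists. All 26 were above 10 CPM and 18 above 100. G6pc2, the islet glucose-6-phosphatase, led at 2386, 2158 and 1845 in females and 2073, 1509 and 1912 in males. Ptprn, a granule membrane protein and autoantigen, was at 759 to 1107, Abcc8 at 684 to 1009 and Glp1r, the receptor of the incretin GLP-1, at 208 to 359. Slc30a8, the granule zinc transporter, was at 199 to 336 and Slc2a2, the rodent beta cell glucose transporter, at 81.8 to 145.

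All 20 beta cell transcription factors were above 10 CPM, and 9 were above 100. Their sum was 0.288% to 0.346% of reads. Mafa, the maturity factor of beta cells (chromosome 15, 75617339 to 75620077), was at 815, 562 and 629 in females and 545, 476 and 459 in males, and all females lay above all males, an order that did not hold under TMM scaling (described with the sexes). Pax6 was at 331 to 549, Insm1 at 255 to 455, Neurod1 at 222 to 337 and Nkx6-1 at 197 to 374. Pdx1, which specifies the pancreas and activates insulin, was at 103, 83.0 and 94.8 in females and 90.1, 106 and 107 in males. Rnf20 itself (ENSMUSG00000028309, chromosome 4, 49632006 to 49656887) was at 82.7, 104 and 109 in females and 95.2, 86.4 and 101 in males, ranks 1663 to 2187. Its partner Rnf40 was at 68.2 to 80.7, and 11 of the 12 genes of H2B ubiquitination and its removal had means over 10 CPM.

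Of the 10 alpha cell markers other than Gcg, 5 were, like Gcg, highest in female control 3. In that library Ttr was at 882 against 506 to 629 elsewhere, Slc7a2 at 279 against 133 to 194 and Irx2 at 40.7 against 21.3 to 29.3. For delta cells the factor Hhex was at 11.8 to 17.1.

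Disallowed genes are active in most tissues and held low in mature beta cells. Of 23 such genes 0 had a mean over 100 CPM in whole islets, 11 were over 10, and the median of their mean ranks was 9482. Ldha, lactate dehydrogenase A, led them at 71.5, 188 and 82.1 in females and 44.3, 42.4 and 63.4 in males, so that the sexes did not overlap and female control 2 was the highest. Slc16a1, the lactate and pyruvate transporter whose misexpression makes exercise release insulin, was at 6.44, 9.87 and 6.20 in females and 4.19, 3.59 and 2.34 in males. Mgst1 was the lowest at 0.517 to 5.22. Endocrine progenitor genes lay lower still, with 8 of the 12 listed members at a mean of 1 CPM or more. Sox4 led at 42.9 to 73.5, Neurog3, the switch of endocrine fate, was at 0 to 1.63, and Pax4 had reads in 1 of 6 libraries only, at 0.0357. A count of 0 allows up to 0.0535 to 0.152 CPM at these depths, by a floor of 3 reads.

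**Figure D3:**
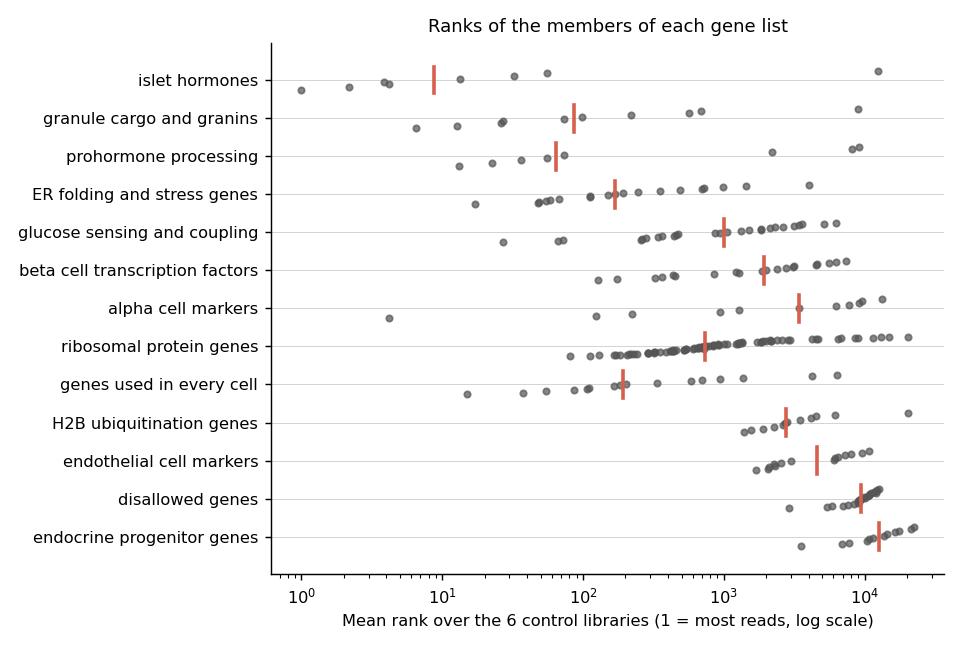
Mean rank over the 6 control libraries (1 = most reads, log scale) of every member of 13 gene lists, one point per gene, with the list's median as a vertical bar. The hormone, granule and processing lists have median ranks of 8.75, 85.7 and 64.6, beta cell transcription factors have a median rank of 1934, and the disallowed genes lie around rank 9482.

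Reads were concentrated in few genes. The 10 leading genes held 24.7%, 20.5% and 20.5% of reads in females and 24.7%, 23.3% and 27.1% in males. The leading 402 to 626 genes held 50% of the reads and the leading 5304 to 5648 held 90%. At 1 CPM or more there were 14168, 14619 and 14403 genes in females and 14354, 14451 and 13965 in males. All 6 libraries shared 12746 such genes, 9754 listed genes reached that level in none, and 3501 in some. Chromosome 7, which carries Ins2, held 13.0% to 18.4% of reads and 5.61% to 6.04% of the reads left when both insulins were removed.

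**Figure D4:**
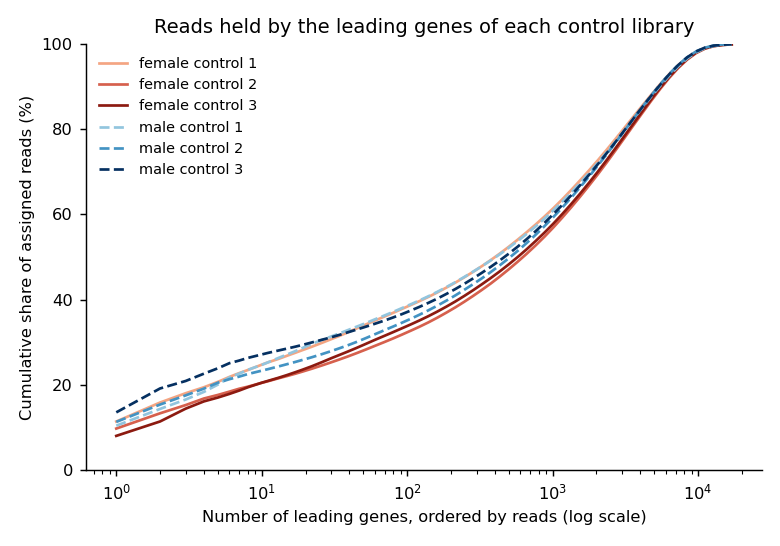
Cumulative share of assigned reads (%) held by the leading genes of each control library, against the number of genes on a log scale, solid lines for females and dashed lines for males. The curves start at the Ins2 share of 8.03% to 13.6% and reach 50% between 402 and 626 genes.

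By biotype, 17102 protein-coding genes held 96.1% to 97.5% of reads. Long noncoding RNA genes were 4001 in number, 15.4% of the listed genes, and held 0.873% to 1.03% of reads. Of them 724 had a mean of 1 CPM or more and 7 a mean over 100. Meg3, an imprinted RNA known for its high level in beta cells (chromosome 12, 109506884 to 109538160), led with 1419 to 1834 and gave 17.6% of the class. Rian from the same imprinted cluster was at 726 to 1244, Neat1 at 847 to 1380 and Malat1 at 590 to 912. Neat1 was higher in every male library than in any female one, while Meg3, Rian and Malat1 overlapped. Processed pseudogenes, 2209 in number, held 0.0880% to 0.167%, and small RNA genes held little, as the 158 miRNA genes took 0.0174% or less.

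The class of genes still to be experimentally checked (TEC) held 0.117% to 0.236%, most of it in Gm38070, which lies wholly within the span of Il1r1 on the same strand (chromosome 1, 40277180 to 40283659). Gm38070 was at 1188, 1350 and 1293 CPM in females and 494, 1616 and 635 in males. Neither the annotation release nor the strand rule is given in the sources used here, so reads of overlapping genes cannot be told apart.

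Reads from ribosomal RNA remained in the libraries. Rn18s-rs5, a copy of the small subunit RNA (chromosome 17, 40157244 to 40159092), took 1.40%, 0.684% and 0.852% in females and 1.78%, 2.15% and 1.71% in males. All male values lay above all female values. AY036118, which overlaps it on the opposite strand, Mir6236 and Lars2 were, like it, lowest in female control 2, where Lars2 was at 478 against 1325 to 2057 in the other libraries. These 4 genes were grouped after their values were seen. The 82 ribosomal protein genes held 1.48% to 2.05% of reads.

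The 15 listed mitochondrially encoded genes held 2.02%, 2.55% and 2.35% in females and 1.49%, 1.88% and 1.82% in males, so the sexes did not overlap. mt-Co1, a cytochrome oxidase subunit, led at 5385 to 8443 CPM. The other 2 oxidase subunits encoded there, mt-Co2 and mt-Co3, were nearly absent at 0.676 to 2.48 and 0.366 to 1.96, and mt-Atp6, mt-Nd3 and mt-Nd4l were at 1.67 or less. Copies of mitochondrial sequence exist in the mouse nuclear genome, and how reads that fit several places were treated is not given in the sources used here. Its part in these low values was not tested.

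Genes of the exocrine pancreas varied widely. Acinar markers took 5.71%, 2.29% and 5.12% of reads in females and 7.88%, 2.77% and 0.533% in males, a range of 14.8-fold. The chymotrypsinogen gene Ctrb1 (chromosome 8, 112413151 to 112417642) was at 11615, 4482 and 9101 CPM in females and 17293, 5852 and 1206 in males, ranks 5 to 38. Pnlip, pancreatic lipase, went from 545 in male control 3 to 8855 in male control 1. Ptf1a, the acinar fate factor, was at 0.250 to 4.59 with the same 2 libraries at the extremes. As a share of the reads outside the acinar list, Ins2 was at 12.1%, 9.98% and 8.47% in females and 11.3%, 11.6% and 13.6% in males. Female control 3 thus stayed lowest and male control 3 highest in Ins2 without the acinar reads.

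Marker lists of the other non-endocrine cell types took smaller shares of reads. Such sums depend on the genes listed and do not measure the amount of a cell type. Duct markers took 0.258% to 0.379%, led by Spp1, osteopontin, at 492 to 940 CPM. Endothelial markers took 0.0804% to 0.0938% in females and 0.0587% to 0.0682% in males and did not overlap, with Cdh5 at 110, 140 and 123 in females and 81.7, 93.8 and 95.7 in males. Stellate and fibroblast markers took 0.0251% to 0.0553%, macrophage markers 0.00555% to 0.0163% and Schwann cell markers 0.00178% to 0.00305%. Lymphocyte markers ran from 0.000424% in male control 3 to 0.124% in female control 2, a 292-fold range. Erythrocyte and adipocyte markers stayed at 0.00838% or less.

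**Figure D5:**
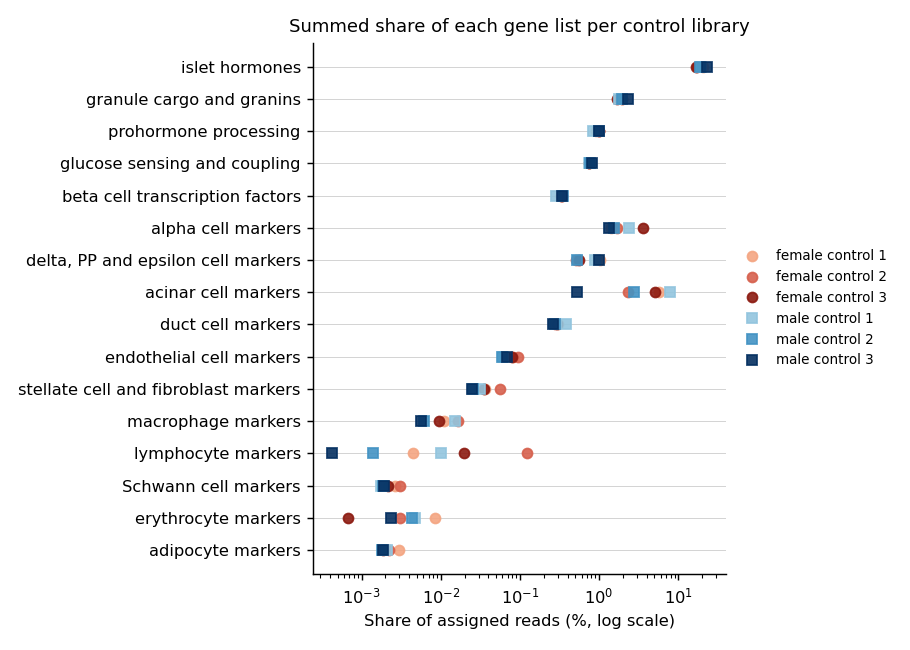
Summed share of assigned reads (%, log scale) of 16 gene lists, one point per control library, circles for females and squares for males. Hormone, granule, processing and glucose sensing lists cluster tightly, acinar markers spread 14.8-fold and lymphocyte markers spread the widest, with female control 2 at 0.124%.

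Among the 1792 genes with a mean of at least 100 CPM the median coefficient of variation over the 6 libraries was 13.9%, with quartiles at 9.91% and 18.2%. Only 41 exceeded 50%, and 24 of these were acinar markers, which were all of the acinar markers at that level. The steadiest were Kars, lysyl-tRNA synthetase, at 2.54% (137 to 148 CPM), Trak1 at 2.82%, Rab21 at 2.84%, Tor1b at 3.14%, Serbp1 at 3.19%, Pld3 at 3.24%, Stk40 at 3.28% and Tnfrsf1a at 3.32%. The usual reference genes varied more, Actb by 17.5% (469 to 771) and Gapdh by 16.5% (491 to 764).

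The 8 largest coefficients belonged to Acta1, Ighm, Xist and 5 others. Acta1, skeletal muscle actin (chromosome 8, 124618508 to 124621490), was at 2447 in male control 2 and at 43.1 to 98.0 in the other 5 libraries. Ighm, the constant region of IgM (chromosome 12, 113382178 to 113386350), was at 759 in female control 2, 125 in female control 3 and 0.553 to 25.2 in the others. Xist, the X-inactivation RNA, was at 401 to 701 in females and 0.337 to 2.07 in males, and the Y-linked genes Ddx3y, Eif2s3y, Kdm5d and Uty summed to 0.0216% to 0.0261% in males and were not listed for females, so all 6 libraries matched their labelled sex. Try5, Klk1, Nupr1, Pnliprp1 and Tff2 followed with coefficients of 72.5% to 89.1%, each highest in male control 1 and lowest in male control 3.

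Genes high in 1 library, at 20 CPM or more and over 8 times every other, were sought after the values above were seen. There were 5 in female control 2, Jchain and the segments Igkv14-126, Ighv11-2, Igkv3-12 and Igkv4-91, all genes of antibodies. There were 7 in male control 2: the muscle genes Acta1, Myh6 and Myh13, the kidney tubule genes Kap and Lrp2, and the pseudogenes Rps2-ps13 and Atp6v0c-ps2. Rps2-ps13 was at 143 there and at 0.168 or less elsewhere. No other library had such a gene. On the muscle list, made after values were seen, 6 of 11 genes had means under 1 CPM, and Acta1 gave 94.4% of the list's mean CPM. On the kidney tubule list, made likewise, 2 of 5 genes had means under 1 CPM, and Kap gave 57.1% of the list's mean CPM.

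The same search for pairs of libraries gave Esr1, the estrogen receptor alpha gene (ENSMUSG00000019768, chromosome 10, 4561593 to 4955614), and Rps24-ps3 for male controls 2 and 3, Tpm3-rs7 for female control 1 with male control 1, and none for the other 13 pairs. Esr1 was at 45.2 and 42.6 CPM in male controls 2 and 3, from 894 and 2390 reads, but at 1.20 in male control 1 and at 1.29, 2.60 and 1.94 in females. The male controls therefore disagree among themselves on this gene. The Cre ER recombinase named for the knockout mice is by construction a fusion with part of an estrogen receptor, and the control labels name no Cre. Gene totals cannot show which part of Esr1 the reads cover, and the origin of these reads was not tested. In the same 2 libraries Rnf20 was at 86.4 and 101, within the range of 82.7 to 109 in the other 4.

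The sexes were set side by side as a description, without a test, because the design foresaw none. Each sex has a table of its own, so sex cannot be told apart from anything else that differed between the sets of libraries. Of 14457 genes with a mean of at least 1 CPM, 3140 (21.7%) had ranges that did not overlap, 1809 (12.5%) with females above and 1331 (9.21%) with males above, or 57.6% of them with females above. With TMM scaling in place of the read total, the split turned to 1467 with females above and 1753 with males above (45.6% with females above), since the median log2 ratio of male to female moved from -0.06 to 0.01. Calls of some genes thus depend on the scaling, as Mafa, Scg3, Snap25 and Mgst1 had females above by the read total but overlapped under TMM. Without female control 1, male control 1 or male control 2 the counts were 5526, 5134 and 5268.

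Of the 23 disallowed genes 11 had females above and 0 males above, or 9 and 0 with TMM scaling, beside 12.5% and 9.21% of all genes. Their median log2 ratio of male to female was -0.90, against -0.06 over all genes. Their summed shares were 0.0318%, 0.0629% and 0.0346% in females and 0.0286%, 0.0212% and 0.0211% in males, with female control 2 well above the rest. Besides Ldha, Slc16a1 and Mgst1 they included Hk2, at 7.18, 20.3 and 11.1 in females and 4.27, 4.71 and 4.64 in males. Of 14 endothelial markers 10 had females above (8 with TMM) and of 13 stellate markers 5 (3 with TMM), with 0 of either list having males above. Several disallowed genes, such as Cxcl12 and Pdgfra, are known to be expressed in stroma, and the part of these cell types in the list's values was not tested. Chemokines, a list made after their values were seen, had 8 of 10 above in females and 1, Cxcl10, above in males (7 and 1 with TMM). Ccl2 was at 43.3, 59.8 and 42.0 in females and 18.9, 10.9 and 8.42 in males. Cxcl5 was at 42.9, 131 and 69.1 against 21.9, 6.53 and 5.99.

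In the other direction, Trib3, a stress-induced pseudokinase (chromosome 2, 152179342 to 152185952), was at 65.4, 42.2 and 58.7 in females and 152, 122 and 194 in males. Phgdh, the first enzyme of serine synthesis (chromosome 3, 98220486 to 98247306), was at 64.2, 56.7 and 64.3 in females and 111, 148 and 193 in males. A list of 8 serine synthesis genes and targets of the factor ATF4 was then made with these values in view, and 8 of 8 had males above, also with TMM scaling. Asns, asparagine synthetase, was at 273 to 330 in females and 377 to 459 in males, Chac1 at 63.2 to 98.2 and 123 to 172, and Sesn2 at 79.5 to 95.3 and 148 to 197. Atf4 itself overlapped, at 415 to 549 and 486 to 576. Since that list was built from genes seen to differ, its count describes these libraries only.

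Over all genes compared, 9.21% had males above and 12.5% females above, and the counts of this paragraph stand beside those shares. Glucose-coupling genes had 6 of 26 with males above and 1 with females above, counts that were equal under TMM although some of the genes differed. Abcc8 was at 684, 700 and 895 in females and 905, 964 and 1009 in males, and Kcnj11, the other part of the channel, at 96.7, 93.6 and 102 against 117, 146 and 145. Beta cell factors had 3 of 20 with males above, among them Insm1 and Nkx2-2, and 1, Mafa, with females above, which was 0 under TMM. On a list of 20 these counts are close to the shares over all genes. Of the 12 mitochondrially encoded genes compared 8 had females above and 2, mt-Co2 and mt-Co3, males above, the same under TMM. The largest ratios with females above, among genes with means of at least 10 CPM, belonged to Xist, Igkv14-126, Cxcl5, Fn1, Amy2a1 and Ccl7. Those with males above were Rps2-ps13, Gm10076, Myh7b, Trib3, Trim34a and Rps3a2. Of these 12 genes, Igkv14-126 and Rps2-ps13 owe their ratio to 1 library each, at 89.7 in female control 2 and 143 in male control 2.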

How the data were processed

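Per the submitters' processing notes, reads were handled with FastQC 0.11.9, Trim Galore 0.6.7, STAR 2.7.3a, GRCm39 (mm39) and featureCounts. The annotation release, strand setting and rule for reads fitting several places are not given in the sources used here. The signal values deposited by the authors are normalized counts, in 1 table per sex scaled over its 6 libraries. Dividing by each library's smallest step gave whole reads for 100% of values (tolerance 0.001). The 6 knockout columns were not used. Repeated entries of a gene, 79 in the female and 73 in the male table, held identical values and were counted once.

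Shares divide a gene's reads by its library's total, which cancels the size factor, and a mean ± SD is over the 3 libraries of a sex unless n = 6 is given. The design foresaw no test between sexes, on the ground that the tables were scaled separately, although shares cancel that scaling. No count model was fitted. Sexes were called not overlapping when the lowest value in one exceeded the highest in the other, among genes in both tables. Gene pairs were tested per kilobase of exon union (GENCODE M21, GRCm38, matched by Ensembl identifier for 99.5% of genes). The permutation p was checked on fixed made-up values only. Simulated data were used to check the recovery of reads, the gene count at a lower depth and the call of ranges that do not overlap. Of the 12 pairs tested 2 are not reported here. TMM factors came from edgeR 4.0.16 in R 4.3.3, and the rest from Python 3.11.15 with pandas 2.3.3. Promoters came from RefSeq. Intervals cover counting error only.

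The members and gene lists were chosen with earlier results of these data known: 26 lists at the outset and 8 after values were seen. Genes named were the hormones, the pairs, Rnf20, the 20 leading genes, the 3 leading genes of each biotype, the 3 leading and the lowest of each list, the 8 most and 8 least variable at 100 CPM or more, and the 6 largest sex ratios in each direction. Other list members and the genes high in 1 or 2 libraries were named after their values were seen. Alternatives were other totals, length definitions, minimum levels and each library left out.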

Additional observations from a re-analysis of the deposited data

How the results depend on the processing

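Of 78 alternatives to the reported shares, counts and pair orders, 4 moved a value, and of 66 fits with a library left out 9 did. A share was called moved when it shifted by at least its SD over the 3 libraries, and a count by a fixed fold. Leaving out 1 of 3 libraries cannot shift a mean that far, so no share could move in those fits. The pair orders had to move in them, by the limit on p. These labels hide wide shifts: the male acinar share went from 3.73% to 1.65% without male control 1. The number of genes at 1 CPM or more depends on the threshold. Counting any read gave 23902 genes in females and 21116 in males (SD 2977, n = 3), with 17701 in male control 2. A threshold of 10 CPM gave 9426 in females and 9282 in males. The count of genes whose sexes did not overlap was 2090 at a minimum of 10 CPM, and with 1 library left out it ran from 3463 to 5526, as ranges of 2 libraries separate more readily. With no minimum level 65.2% of those genes had females above, and without female control 1 it was 67.1%. With 5 libraries the smallest exact permutation p is 0.0625, so the number of pairs called was 0 to 0 for each library left out, while all 9 called pairs held their direction. Removing the acinar or mitochondrially encoded genes from the total gives no value for those genes' own shares. No paired analysis was possible because the comparison of the sexes is a count of genes whose ranges do not overlap and comes from no test; the gene pair tests compare genes within each library, not groups. Depth limits genes below about 0.152 CPM in male control 2, the shallowest library, where 3 reads make that level.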

Other observations

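Receptor genes, grouped after their values were seen, were mostly present, 13 of 17 with means over 10 CPM. Igf1r led at 345 to 658 CPM, against 31.9 to 46.1 for Insr. Prlr, the prolactin receptor, was at 177 to 272, Ghr, the growth hormone receptor, at 115 to 147, and Sstr3, a somatostatin receptor, at a steady 139 to 156. Gcgr, the glucagon receptor, was at 15.9, 13.2 and 18.7 in females and 27.5, 24.3 and 40.0 in males, and Gipr and Adra2a likewise had males above females. Lepr, the leptin receptor, was at 0.339 to 1.87. Among 14 other peptide and amine genes Pdyn, prodynorphin, led at 118 to 239, followed by Ucn3, urocortin 3, at 90.2 to 159. Npy and Tac1 had females above males, at 14.1 to 20.9 and 13.0 to 17.5 against 5.67 to 10.4 and 5.46 to 9.36.

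The regenerating islet-derived genes took 0.187%, 0.0709% and 0.144% of reads in females and 0.197%, 0.131% and 0.0198% in males. Reg3b was highest in male control 2, at 118, and lowest in male control 3, at 7.19. The interferon-induced genes Rsad2, Cmpk2 and Ddx60, among the 41 genes whose coefficient of variation exceeded 50%, were all lowest in female control 1 and highest in male control 2, where Rsad2 was at 491. Txnip, a glucose-induced gene, was at 85.8 to 143 in females and 147 to 326 in males, with male control 3 the highest.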
